A study of Mus musculus with 4 samples.

Results

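The genes of platelet-derived growth factor (PDGF) signaling were examined in the developing mouse face, namely the ligand genes Pdgfa, Pdgfb, Pdgfc and Pdgfd and the receptor genes Pdgfra and Pdgfrb. These 6 genes were chosen by name, and all 6 were found among the 43346 gene entries measured. Total RNA had been sequenced from 4 outgrowths of the wild-type face at e11.5, a mid-gestation stage, with 1 library for each: the lateral nasal and medial nasal processes, which build the nose, and the maxillary and mandibular processes of the first pharyngeal arch, which build the upper and lower jaw. Each library held the mixed cells of a fresh dissection, and the sources used here give neither the strain nor the number of embryos behind a library. With 1 library per process no difference could be set against a spread between embryos, so no p-value is given, and each interval is at the 95% level and accounts for the error of counting alone.

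PDGF ligands are secreted as disulfide-linked dimers and act on a pair of receptor tyrosine kinases. PDGF-A and PDGF-C signal mainly through the alpha receptor, PDGF-B binds both receptors, and PDGF-D signals mainly through the beta receptor. In the face, neural crest-derived mesenchyme carries the alpha receptor and the overlying epithelium is a source of PDGF-A and PDGF-C. Loss of Pdgfra in neural crest cells, or of Pdgfa and Pdgfc together, produces facial clefts in mice, and PDGF-B from endothelial cells recruits pericytes that carry the beta receptor.

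Pdgfra and Pdgfc, a receptor gene and a gene for one of its ligands, had the same order of levels over the 4 processes. Their RefSeq promoters on GRCm38.p6 are shown for that reason, from 250 bases before to 50 bases after the start of transcription, on the plus strand. The Pdgfc window is chr3:81036166-81036465 and the Pdgfra window is chr5:75152001-75152300. Capitals mark the only match to the CArG box, the element bound by serum response factor, which PDGF receptors are known to engage.
Pdgfc: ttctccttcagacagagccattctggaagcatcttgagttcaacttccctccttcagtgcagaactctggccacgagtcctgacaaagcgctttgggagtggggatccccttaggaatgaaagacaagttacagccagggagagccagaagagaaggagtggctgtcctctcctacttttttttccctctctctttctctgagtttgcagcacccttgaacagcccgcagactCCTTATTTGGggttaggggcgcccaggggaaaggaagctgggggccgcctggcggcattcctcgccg
Pdgfra: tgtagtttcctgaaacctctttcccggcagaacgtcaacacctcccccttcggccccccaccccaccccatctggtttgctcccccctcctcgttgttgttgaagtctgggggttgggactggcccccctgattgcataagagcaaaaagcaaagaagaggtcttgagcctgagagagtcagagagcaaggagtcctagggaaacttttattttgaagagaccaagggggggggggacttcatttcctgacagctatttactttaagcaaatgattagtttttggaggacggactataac
The Pdgfc match began 17 bases before the start site. The Pdgfra window held no match, and of 32851 promoters of this length 1.63% held at least 1. The CArG box was looked for after the sequences had been seen. Other motifs were searched on both strands and had no match in either window. These were the GC box (GGGCGG), held by 35.7% of all promoters, and the CCAAT box, held by 37.4%. The TATA box (TATAAA) was held by 13.6% and a TFAP2 motif (GCCNNNGGC) by 16.6%. GC content was 55.0% for Pdgfc and 51.0% for Pdgfra, with a median of 52.7% over all promoters.

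Levels of one gene in the 4 libraries are given as CPM, the share of a library's counts that a gene took on a per-million scale, with TMM scaling, which sets the bulk of genes level between libraries. Levels of different genes are set side by side only as the deposited TPM, which is corrected for transcript length. Where 4 values stand in a row, they belong to the lateral nasal, the medial nasal, the maxillary and lastly the mandibular library. Each library is the RNA of mixed cells, so fewer cells of a type and less RNA per cell cannot be told apart.

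Pdgfra, the alpha receptor gene of the facial mesenchyme, was the most abundant of the 6 genes. It lies on chromosome 5 from 75152292 to 75198215 (GRCm38, plus strand). Its level was 578 CPM in the lateral nasal library, 555 CPM in the medial nasal library, 517 CPM in the maxillary library and 707 CPM in the mandibular library. The mandibular library stood apart at the top, and the remaining 3 lay close together with the maxillary library at the bottom. The mandibular level exceeded the maxillary level 1.37-fold (interval 1.33 to 1.41) and the lateral nasal level, the next highest, 1.22-fold (interval 1.19 to 1.26). Its 7508 to 9524 counts per library made Pdgfra the only member for which the intervals of all 6 pairs of processes excluded a ratio of 1 with the scaling used here. The lateral and medial nasal libraries differed by only 1.04-fold (interval 1.01 to 1.07), or 0.058 in log2. TMM over protein-coding genes alone shifted the median gene by 0.052 between these libraries, toward a ratio of 1 for Pdgfra. This interval was not computed under other scalings, so the separation of this pair depends on the scaling.

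Pdgfrb encodes the beta receptor of pericytes and mesenchyme and lies on chromosome 18 from 61045150 to 61085061. It stood at 153 CPM in the lateral nasal library, 190.3 CPM in the medial nasal library, 162 CPM in the maxillary library and 149 CPM in the mandibular library. Thus the library highest for Pdgfra was lowest for Pdgfrb. The medial nasal level of Pdgfrb exceeded the mandibular level 1.28-fold (interval 1.203 to 1.354) and the maxillary level 1.18-fold (interval 1.11 to 1.24). The interval for the lateral nasal over the mandibular process, 0.966 to 1.09, included 1.

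**Figure D1:**
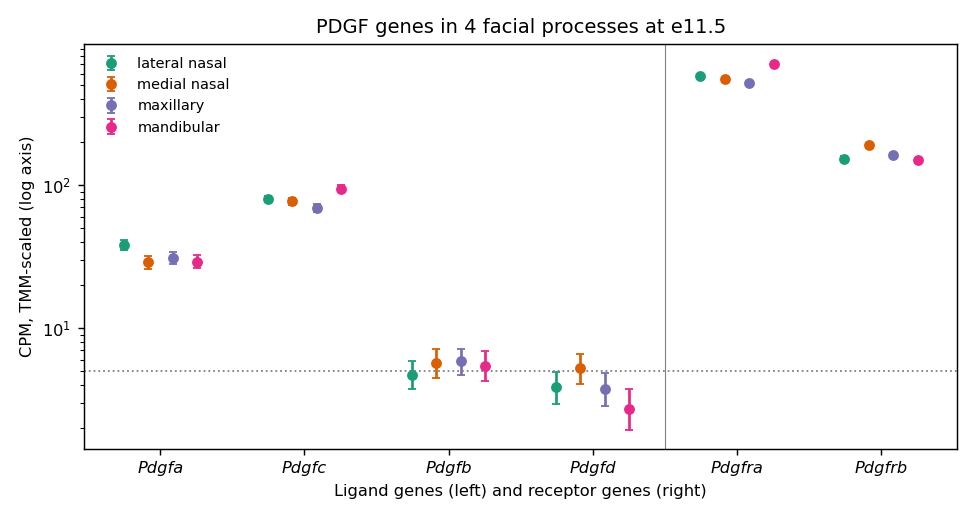
CPM of the 6 PDGF genes (log axis) in the 4 facial processes, 1 point per library, with bars for the exact Poisson 95% interval of the count and a dotted line at 5 CPM. The libraries of Pdgfra lie between 517 and 707 CPM, highest in the mandibular process, and those of Pdgfd between 2.75 and 5.25 CPM, highest in the medial nasal process.

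Among the ligand genes, Pdgfc and Pdgfa were well expressed. Pdgfc, on chromosome 3 from 81036416 to 81214040, encodes a latent ligand that needs extracellular cleavage. Its level was 80.1 CPM in the lateral nasal library, 77.2 CPM in the medial nasal library, 69.2 CPM in the maxillary library and 94.2 CPM in the mandibular library. As for Pdgfra, the mandibular library was highest and the maxillary library lowest, 1.36-fold apart (interval 1.254 to 1.48). Only the nasal libraries, 1.04-fold apart (interval 0.956 to 1.13), were not separated by their counting interval. Pdgfa, on chromosome 5 from 138976014 to 138997370 on the minus strand, encodes the ligand that signals through the alpha receptor alone. It reached 38.3 CPM in the lateral nasal library, against 28.9 CPM in the medial nasal library, 31.0 CPM in the maxillary library and 29.2 CPM in the mandibular library. The lateral nasal library stood above the other 3, by 1.24-fold over the maxillary (interval 1.09 to 1.396) and 1.33-fold over the medial nasal library (interval 1.17 to 1.51). The intervals between the other 3 libraries all included 1.

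Pdgfb and Pdgfd were near the limit of what this depth can compare, with 37 to 89 counts per library. Pdgfb, the endothelial and platelet ligand gene on chromosome 15 from 79995874 to 80014977, stood at 4.74, 5.69, 5.86 and 5.49 CPM from the lateral nasal to the mandibular library. All 6 pairwise intervals included 1, and the widest gap, maxillary over lateral nasal, was 1.24-fold (interval 0.901 to 1.70), so a difference between processes was not detectable. Pdgfd, the beta receptor ligand gene on chromosome 9 from 6168584 to 6378850, stood at 3.88, 5.25, 3.75 and 2.75 CPM in the same order. Its medial nasal library was highest and its mandibular library lowest, 1.91-fold apart (interval 1.27 to 2.92), and this was the only pair whose interval excluded 1.

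No member was at least 2-fold apart between its highest and lowest library with 5 CPM or more in the higher one. The same criterion held for 10.6% of the 12406 genes that reached 5 CPM in at least 1 library. For single pairs of processes the count was also 0 of the 5 or 6 members that reached 5 CPM in the pair. Over all genes the share was 3.03% for lateral against medial nasal, 3.17% for maxillary against mandibular and 3.23% for lateral nasal against maxillary. It was 5.37% for lateral nasal against mandibular, 5.7% for medial nasal against maxillary and 5.89% for medial nasal against mandibular. At a 1.5-fold threshold 1 of the 6 members, Pdgfd, was past it, against 23.1% of genes. Pdgfd reached 5 CPM only in the medial nasal library, where it was highest (5.25 CPM), so its place in this count depended on that library. The median ratio of highest to lowest library was 1.27 over all tested genes, with quartiles at 1.17 and 1.47. Pdgfb at 1.24 lay just under that median and Pdgfrb, Pdgfa, Pdgfc and Pdgfra lay between it and the upper quartile. The ratio was wider among genes with few counts, with a median of 1.71 over the 1756 genes within 2-fold of the mean level of Pdgfd. Pdgfra was more spread than 81.9% of the 470 genes near its own level, whose median ratio was 1.21. Pdgfc was more spread than 80.8% of the 4094 genes near its level. The corresponding share was 69.4% for Pdgfrb, 68.8% for Pdgfa, 58.9% for Pdgfd and 14.1% for Pdgfb.

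**Figure D2:**
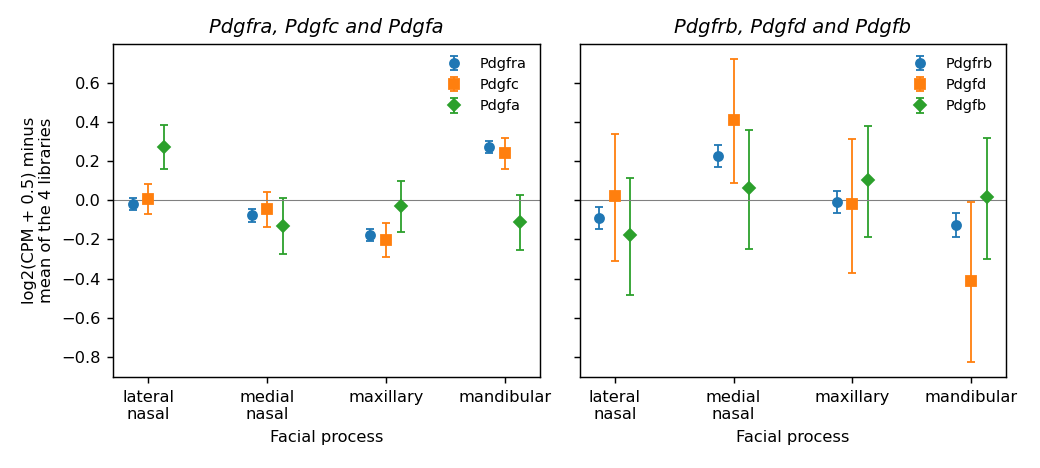
log2(CPM + 0.5) of each PDGF gene minus its mean over the 4 libraries, with bars for counting intervals, grouped as Pdgfra, Pdgfc and Pdgfa (left) and Pdgfrb, Pdgfd and Pdgfb (right). Pdgfra and Pdgfc overlie each other and peak in the mandibular process, Pdgfa peaks in the lateral nasal process, and Pdgfrb and Pdgfd peak in the medial nasal process.

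The pattern of Pdgfc followed that of Pdgfra closely. After centering the log2 values on their mean over the 4 libraries, the profiles differed by a root-mean-square of 0.029. Of 7113 protein-coding genes with 20 CPM or more in every library, 3 lay nearer to Pdgfra than Pdgfc did, namely Ank3, Naa50 and Fmr1, which were named after their values were seen. With deposited TPM, a comparison added after the data were seen, 8 genes lay nearer. The remaining distances from Pdgfra were 0.25 for Pdgfa, 0.27 for Pdgfrb, 0.22 for Pdgfb and 0.43 for Pdgfd. Each profile consists of 4 points, and 309 genes lay within 0.1 of Pdgfra, so the likeness is a description only. For Pdgfd, the one member with a range above 1.5-fold, the nearest of 12465 protein-coding genes were Lama4, a laminin gene, at 0.037, Ttbk1 at 0.040 and Armh4 at 0.041. Pdgfrb lay at 0.18 from Pdgfd, and 3.71% of genes lay nearer to Pdgfd. Seen from Pdgfrb, 40.1% of 7113 genes lay nearer than Pdgfd did, and Pdgfb lay nearer as well, at 0.13.

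Per length, Pdgfra exceeded Pdgfrb in every process. Pdgfra stood at 77.7 TPM in the lateral nasal library, 73.3 TPM in the medial nasal library, 66.5 TPM in the maxillary library and 93.5 TPM in the mandibular library, and Pdgfrb at 25.1, 30.7, 25.3 and 24.0 TPM in that order. The TPM ratio of the receptors ranged from 2.39 in the medial nasal library to 3.89 in the mandibular process, with 3.10 in the lateral nasal library and 2.62 in the maxillary process. A share of 70.5% to 79.6% of receptor TPM therefore belonged to Pdgfra. By mean TPM, Pdgfra ranked above 96.6% of protein-coding genes, Pdgfrb above 87.0%, Pdgfc above 85.6%, Pdgfa above 77.1%, Pdgfb above 47.8% and Pdgfd above 47.6%.

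Pdgfc held the largest share of ligand TPM in each library. It stood at 24.6, 23.2, 19.98 and 28.7 TPM from the lateral nasal to the mandibular library, and Pdgfa at 18.6, 13.1, 13.7 and 13.9 TPM. The share of Pdgfc was lowest in the lateral nasal process, at 53.0%, and highest in the mandibular process, at 63.2%. Pdgfa made up 40.2% of ligand TPM in the lateral nasal library, 32.6% in the medial nasal library, 37.1% in the maxillary library and 30.6% in the mandibular library. Pdgfb and Pdgfd stayed between 1.14 and 2.18 TPM and each made up 2.51% to 5.41%. The ratio of Pdgfc to Pdgfra, which does not depend on the scaling of a library, was 0.317, 0.317, 0.301 and 0.307 from the lateral nasal to the mandibular library. The ratio of Pdgfa to Pdgfra was less even, at 0.240, 0.179, 0.206 and 0.148 in that order. Summed receptor TPM exceeded summed ligand TPM 2.21 to 2.59-fold.

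**Figure D3:**
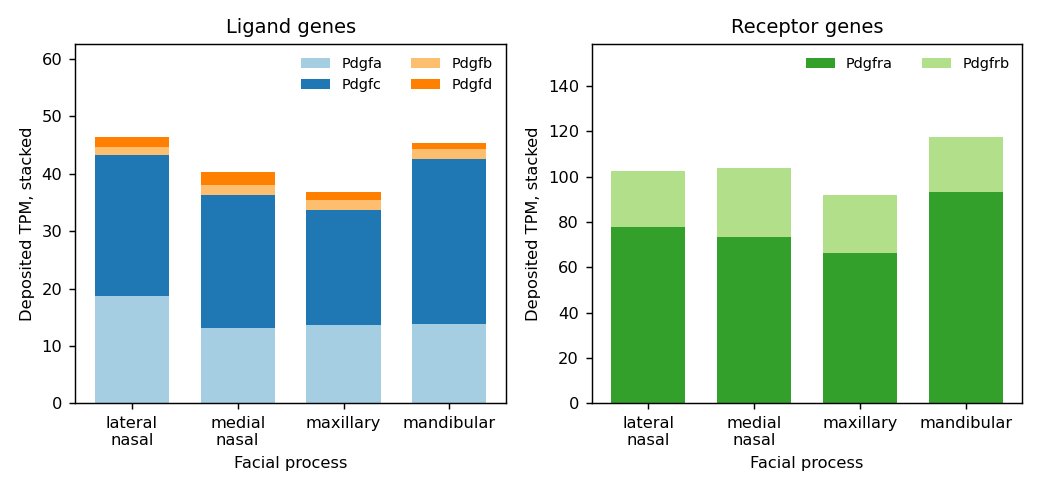
Deposited TPM of the ligand genes (left) and the receptor genes (right), stacked for each of the 4 facial processes, with 1 library per process and no error bars. Pdgfc and Pdgfa make up nearly all ligand TPM, and Pdgfra makes up 70.5% to 79.6% of receptor TPM.

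The mean transcript length that accompanies each value reflects the mix of isoforms. For Pdgfa, with 7 annotated transcripts, it was 1933, 2024, 2026 and 1943 bases from the lateral nasal to the mandibular library. Pdgfd, with 2 transcripts, varied from 2146 bases in the lateral nasal library to 2284 bases in the maxillary library. Pdgfra, Pdgfrb and Pdgfb differed by less than 2 bases between libraries. Transcript-level values were not analysed here. The standard deviation of the estimated count, which measures how reads shared with other genes could be divided, was at most 2.56 counts for Pdgfa and 1.08 for Pdgfc and was 0 for the other 4 members.

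Genes around the ligands and receptors were taken from lists by role, and their counts are to be read against the 10.6% and 23.1% of all tested genes that were 2-fold and 1.5-fold apart. Among 5 genes of proteases that release active ligand, 1 was at least 2-fold apart and 4 were at least 1.5-fold apart, with a median ratio of highest to lowest library of 1.68. Plat, which encodes the tissue plasminogen activator that cleaves PDGF-C, stood at 62.1, 50.04, 38.5 and 29.99 CPM from the lateral nasal to the mandibular library. The mandibular process, highest for Pdgfc, was thus lowest for Plat, 2.07-fold below the lateral nasal process (interval 1.84 to 2.33). St14, for the membrane protease matriptase, ranged from 8.83 CPM in the mandibular to 15.8 CPM in the medial nasal library. Pcsk5, for a proprotein convertase, ranged from 56.5 CPM in the maxillary library to 94.7 CPM in the lateral nasal library.

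Among 5 genes of proteins that bind the ligands or associate with the receptors, 0 were 2-fold and 3 were 1.5-fold apart, with a median ratio of 1.89. Nrp1, a co-receptor gene, stood at 55.8, 65.2, 79.2 and 107 CPM from the lateral nasal to the mandibular library, 1.91-fold from lowest to highest (interval 1.76 to 2.08). Cspg4, for the pericyte proteoglycan NG2, was lowest in the maxillary process at 8.23 CPM and highest in the mandibular process at 15.6 CPM. Lrp1, for a receptor that associates with the beta receptor, stood at 538, 743, 573 and 642 CPM and, like Pdgfrb, was highest in the medial nasal process. Sparc, for a matrix protein that binds PDGF-B, ranged from 157 to 182 CPM.

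The intracellular transducers varied little. Of 30 genes, 0 were 2-fold and 1 was 1.5-fold apart, and their median ratio was 1.17. Gab1, for a docking protein, ranged from 49.4 CPM in the lateral nasal library to 75.9 CPM in the mandibular library, and Pik3cb, for a catalytic subunit of phosphoinositide 3-kinase, from 9.55 to 14.3 CPM. The most abundant per length were the kinase gene Akt1 at a mean of 71.8 TPM and the phospholipase gene Plcg1 at 61.6 TPM. Of 11 attenuator genes, 0 were 2-fold and 2 were 1.5-fold apart, with a median of 1.32. Dusp6, for a phosphatase of ERK kinases, stood at 128, 127, 154 and 91.6 CPM from the lateral nasal to the mandibular library. Its order at the extremes was the reverse of that of Pdgfra, with the maxillary library 1.68-fold above the mandibular library (interval 1.56 to 1.80). Spry4, for an inhibitor of receptor tyrosine kinase signaling, ranged from 19.97 CPM in the mandibular to 33.7 CPM in the medial nasal library. Rasa1, for a GTPase-activating protein that binds the receptors, ranged from 113 to 122 CPM.

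Of 13 nuclear response genes 6 reached 5 CPM, of which 1 was 2-fold and 4 were 1.5-fold apart, with a median of 1.56. Jun stood at 63.3 CPM in the lateral nasal library and 26.8 CPM in the medial nasal library, 2.37-fold apart (interval 2.10 to 2.68), with 42.3 and 46.6 CPM in the maxillary and mandibular processes. Ier2, an immediate early gene, ranged from 18.0 CPM in the mandibular to 28.8 CPM in the maxillary library. Srf, for serum response factor, stood at 51.9, 37.4, 57.6 and 43.5 CPM from the lateral nasal to the mandibular library. It was highest in the maxillary library, where Pdgfra and Pdgfc were lowest, and was named after its values were seen. A link between Srf and the CArG match of Pdgfc was not tested. The relation of these genes to PDGF signaling was not tested.

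**Figure D4:**
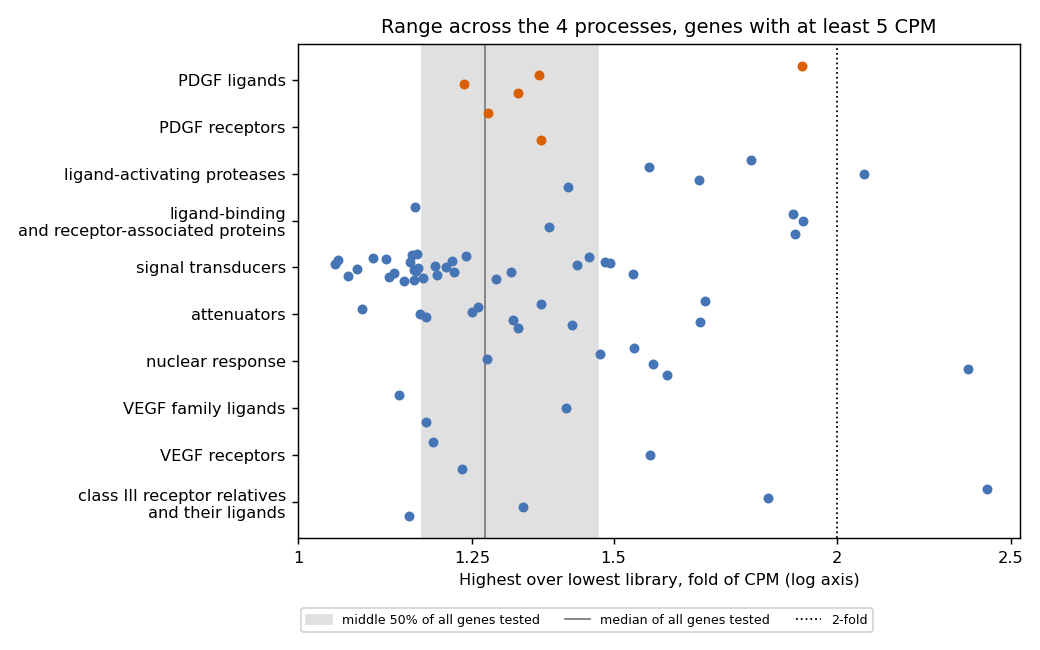
Ratio of the highest to the lowest library in CPM (log axis) for genes that reached 5 CPM anywhere, by list, with the PDGF genes in orange, the median and middle 50% of all 12406 tested genes in grey and a dotted line at 2-fold. All PDGF genes but Pdgfd lie inside the grey band, and Plat, Jun and Kitl lie beyond 2-fold. The signal transducers have a median of 1.17, near the lower edge of the band, and run from 1.05 (Pik3ca) to 1.54 (Gab1).

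The closest relatives of the PDGF genes were compared in the same way. VEGF ligand genes had a median ratio of 1.18 over the 3 of 5 that reached 5 CPM, and the 3 VEGF receptor genes had a median of 1.23, with 0 past 2-fold in either list. Vegfa, the main endothelial growth factor gene, ranged from 49.5 to 58.4 CPM, and Vegfb from 7.10 to 10.01 CPM. The receptor gene Kdr ranged from 73.5 to 87.4 CPM, Flt1 from 20.4 to 25.2 CPM and Flt4 from 17.8 to 28.1 CPM. Kit, for the stem cell factor receptor, follows Pdgfra on chromosome 5 (75574916 to 75656722). Its level was 23.6, 27.1, 16.9 and 31.0 CPM from the lateral nasal to the mandibular library, 1.83-fold apart (interval 1.56 to 2.14). Kit and Pdgfra therefore shared the highest and the lowest process. Kdr, which follows Kit (75932827 to 75978458), was also highest in the mandibular process, and lowest in the lateral nasal process. Csf1r, beside Pdgfrb on chromosome 18 (61100598 to 61132149), was likewise highest in the medial nasal library (12.2 CPM) and lowest in the mandibular library (9.13 CPM) and was named after its values were seen. Kitl, for the Kit ligand, stood at 31.5 CPM in the lateral nasal library and 12.99 CPM in the mandibular library, 2.43-fold apart (interval 2.04 to 2.90).

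Marker genes of the cells that make or receive PDGF signals are given beside these results, and their part in them was not tested. The 7 mesenchyme markers all reached 5 CPM and summed to 3734, 4025, 4720 and 3938 CPM from the lateral nasal to the mandibular library. Their sum was highest in the maxillary process, where Pdgfra was lowest, but the members did not move together. The maxillary library was highest for 3 of the 7 (Prrx1, Twist1 and Vim), the lateral nasal library for 2 (Prrx2 and Msx1) and the medial nasal library for 2 (Col1a2 and Col3a1). All 12 epithelial markers reached 5 CPM and summed to 599, 575, 504 and 424 CPM. The lateral nasal process, highest for Pdgfa, was highest in this sum and for 5 of the 12 markers, while 4 (Krt5, Krt14, Perp and Trp63) were highest in the maxillary library and 3 in the medial nasal library. The 8 endothelial markers summed to 194, 215, 207 and 223 CPM, and the 4 megakaryocyte markers to 17.5, 12.2, 16.7 and 12.9 CPM. Of 10 mural cell markers 7 reached 5 CPM, and all 10 summed to 163, 232, 185 and 295 CPM. The mandibular library was highest for 4 of the 7 (Abcc9, Des, Anpep and Acta2), although Pdgfrb was lowest there. The medial nasal library was highest for 2 (Notch3 and Rgs5) and the maxillary library for 1 (Tagln). Notch3 held 138, 193, 143 and 186 CPM of the sum, and the pericyte gene Rgs5 3.39, 7.83, 2.63 and 7.65 CPM. Higd1b had 0 counts in 3 libraries. Acta2 and Des, which muscle also expresses, stood at 1.29, 3.33, 12.9 and 49.7 CPM and at 1.54, 3.03, 6.13 and 19.97 CPM. The muscle markers were likewise highest in the mandibular library, at 651 CPM. The mural sum there therefore includes genes shared with muscle.

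Markers of other tissues also varied between the libraries, and their part in the results was not tested either. The 8 neuronal markers summed to 384 CPM in the medial nasal library, highest for Pdgfrb and Pdgfd, and to 193, 175 and 88.5 CPM in the remaining libraries, lateral nasal first. The 6 neural progenitor markers summed to 22.7, 47.5, 11.2 and 3.27 CPM, and the 5 Schwann cell precursor markers to 56.4, 89.1, 62.1 and 56.5 CPM. The 6 muscle markers summed to 651 CPM in the mandibular library, highest for Pdgfra and Pdgfc, and to 32.4, 14.1 and 216 CPM in the remaining libraries, maxillary last. The 6 macrophage markers summed to 10.5 to 12.7 CPM, and none of them reached 5 CPM.

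The libraries held 13216161 to 16163874 counts, so that 5 CPM equals 67.4 to 81.2 counts. The regional genes followed the process names, with Hand2 at 103 CPM in the mandibular and at most 1.32 CPM in any other library, Barx1 at 119 and 120.0 CPM in the first arch and at most 15.3 CPM in the nasal libraries, and Alx1 at 267 and 266 CPM in the nasal and at most 65.9 CPM in the first arch libraries. Pax7 was highest in the lateral nasal library at 113 CPM and Lhx8 in the maxillary library at 121 CPM. The tissue entry of the library titled medial nasal process carries the abbreviation of the lateral nasal process in brackets.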

How the data were processed

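The authors prepared stranded total RNA libraries with ribosomal RNA removed, sequenced single-end reads of 50 bp, and mapped them to mm10 with STAR. Expected counts and TPM per gene were deposited by the authors, who obtained them from RSEM with GENCODE M4 (tools and builds as named in the submitters' processing notes and methods, RSEM at version 1.4.1). These estimated counts are not normalized, and RSEM divides shared reads among genes.

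Counts were rounded. Left out were 26248 entries named by a number (1 to 5 counts per library) and 96 spike-in entries (0 counts). Symbols and coordinates came from GENCODE M21 on GRCm38, the same assembly as mm10. All listed genes matched except Flt3l. TMM factors came from edgeR 4.0.16, for which a gene needed 10 counts in some library. CPM intervals are exact Poisson intervals, and intervals of ratios are exact (Clopper-Pearson) conditional binomial intervals. The highest and lowest of 4 libraries were picked by value, which these intervals do not account for. A count of 0 allows up to 3 counts, or 0.185 to 0.223 CPM.

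The members and lists were chosen with earlier results of these data known. Named from each list were the 2 genes of largest ratio at 5 CPM or more and the 2 of highest mean TPM, and for members with at least a 1.5-fold range the 3 nearest profiles. For marker lists the rule allowed up to 3 genes by mean CPM, and the other markers named were chosen after their values were seen. The procedure was tested on simulated data. Alternatives were DESeq2 1.42.0 size factors, total counts, protein-coding genes alone, deposited TPM, posterior mean counts, and other minimum levels and thresholds. One gene of the label check is not reported here.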

Additional observations from a re-analysis of the deposited data

How the results depend on the processing

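With 1 library per process, neither replicate error nor the effect of leaving out a library could be measured. Each member's log2 difference between its highest and lowest process stayed within its counting interval and kept its sign under all 6 other scalings, of which TPM scaled by TMM was chosen after seeing the data. It ranged from 0.44 to 0.49 for Pdgfra, 0.35 to 0.41 for Pdgfrb, 0.44 to 0.52 for Pdgfc, 0.36 to 0.51 for Pdgfa, 0.24 to 0.32 for Pdgfb and 0.93 to 0.99 for Pdgfd. The process of lowest Pdgfa became the mandibular in 2 scalings, total counts and protein-coding genes alone, and that of highest Pdgfb became the medial nasal with total counts and was tied between the medial nasal and maxillary processes in deposited TPM. No member was 2-fold apart under any scaling, at a minimum of 1 or 20 CPM or none, or at 3-fold. The widest ratio of any member was 1.91-fold, so the other minimum levels and the 3-fold threshold could only give 0. A 1.5-fold threshold gave 1 member between highest and lowest process and 1 between the medial nasal and mandibular processes. Of 113 alternative values 111 kept their result, a count that includes the values fixed in advance in these ways. Depth limits Pdgfb and Pdgfd most, with 37 to 89 counts per library and an interval of 1.27 to 2.92 for the widest Pdgfd ratio.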
